A study of Danio rerio with 8 samples.

Results

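SoxE and SoxD genes encode transcription factors that bind DNA through an HMG box. In zebrafish the SoxE class holds the sox9 paralogs sox9a and sox9b, the sox8 paralogs sox8a and sox8b, and sox10, and the SoxD class includes sox5 and sox6. Sox9 proteins direct cartilage formation and switch on the genes of the cartilage matrix, and Sox5 and Sox6 act beside them on the same genes. Sox10 keeps neural crest cells in being and drives the fate of pigment cells and glia. Sox9 is also used in heart valve and epicardial cells, in bile and pancreatic ducts and in retinal glia. In earlier work on zebrafish, sox9b was described as a transcript lowered by TCDD in jaw and heart. All 7 genes were found by symbol, each with 1 row among the 25725 genes listed, and all 7 were among the 20522 genes with enough counts to test.

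RNA came from zebrafish larvae at 5 days postfertilization, with the tissue labelled heart. TCDD (2,3,7,8-tetrachlorodibenzo-p-dioxin) is a dioxin that activates the aryl hydrocarbon receptor, a ligand-dependent transcription factor. There were 4 TCDD samples, exposed from 2 hours postfertilization on, and 4 DMSO samples, kept in the solvent over the same time. The TCDD concentration, the strain, the number of larvae per sample and the clutches are not stated in the labels. Nothing says that the samples of a group came from separate clutches, and a p value here rests on differences among the 8 samples that may be technical. The libraries held 14048563 to 15183023 estimated counts each, and 3 counts, taken as the limit of detection, came to 0.198 to 0.214 CPM, the count scaled to library size. The CPM of single genes are also scaled with TMM factors, which correct for differences in library composition. Means are given ± SD with n = 4 per group, log2 fold changes of TCDD over DMSO ± SE, and adjusted p values from the quasi-likelihood test of edgeR with Benjamini-Hochberg adjustment over all genes tested. Genes with an adjusted p under 0.05 were called changed, which held for 5.72% of the genes tested, 2.73% lower and 2.99% higher in TCDD.

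The libraries hold transcripts of many organs besides the heart. The gene cyp1a, whose induction marks exposure to TCDD, lay at 6173 to 9744 CPM in TCDD libraries and 101 to 164 CPM in DMSO libraries, so no library went against its label. The 13 heart muscle markers measured, none at 0 in any library, summed to 958 to 1450 CPM in TCDD libraries and 1365 to 1700 CPM in DMSO libraries, scaled by library size alone. The 28 cartilage genes summed to 9018 to 10921 CPM in TCDD libraries and 11914 to 16441 CPM in DMSO libraries, and 12 liver genes to 37671 to 44766 CPM in TCDD libraries and 35157 to 57005 CPM in DMSO libraries. The values below therefore describe the sampled material as a whole. Fewer cells of a type and less RNA per cell cannot be told apart in such bulk samples.

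The SoxE gene sox9b fell by 59.1% in TCDD, and it was the only 1 of the 7 genes that was called. The TCDD libraries 1 to 4 held 11.9, 9.08, 11.9 and 13.6 CPM of sox9b, against 31.7, 26.6, 24.9 and 30.6 CPM in DMSO libraries 1 to 4. Every TCDD library lay far below the lowest DMSO library. The means were 11.6 ± 1.89 CPM in TCDD and 28.4 ± 3.23 CPM in DMSO. The log2 fold change was -1.29 ± 0.14, with a 95% confidence interval of -1.60 to -0.98 and adjusted p = 0.00062 (edgeR). In the list of all genes tested sox9b ranked 38 by p value. The call held in each of the 22 alternative analyses run, among them the fits that left out 1 library, with log2 fold changes of -1.37 to -1.13. The 22 include thresholds of 0.01 and 0.10 on the main fit, of which 0.10 could not lose the call.

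**Figure D1:**
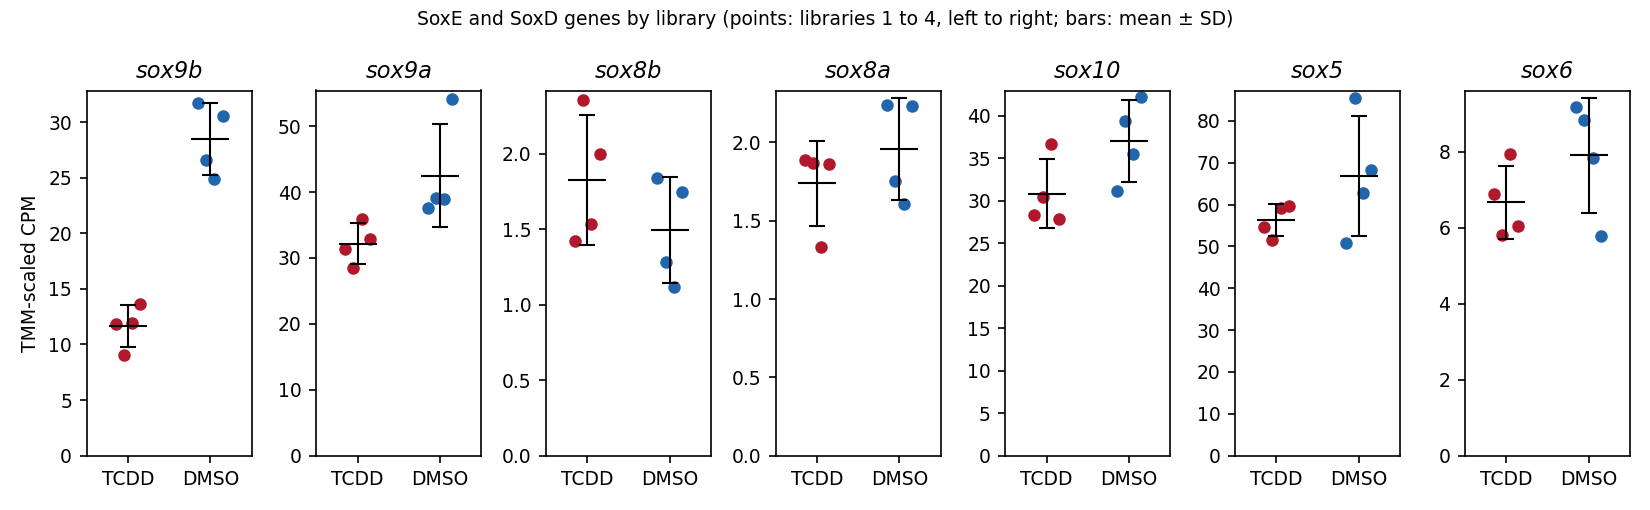
TMM-scaled CPM of the 7 SoxE and SoxD genes (y axis, a separate scale from 0 for each gene) in the 4 TCDD and 4 DMSO libraries; points are libraries and bars the mean ± SD. The sox9b points lie at 9.08 to 13.6 CPM in TCDD and 24.9 to 31.7 CPM in DMSO, a wider gap than for any of the other 6 genes.

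The paralog sox9a was lower in TCDD by a smaller amount and was not called. It lay at 31.3, 28.5, 35.9 and 32.9 CPM in TCDD libraries, against 37.6, 39.2, 38.9 and 54.1 CPM in DMSO libraries. The groups did not overlap, as was true of 6.34% of all genes tested in this direction, and DMSO 4 lay well above the other DMSO libraries. The means were 32.2 ± 3.07 CPM in TCDD and 42.5 ± 7.81 CPM in DMSO. The log2 fold change was -0.40 ± 0.13, with an interval of -0.69 to -0.11 and adjusted p = 0.106 (edgeR). It was -0.26 without DMSO 4 and -0.27 with library size alone. In the authors' TPM sox9a averaged 25.1 ± 3.08 TPM in TCDD and 27.0 ± 7.06 TPM in DMSO (SD, n = 4 each), and the groups overlapped.

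Both sox8 paralogs, which are expressed at a low level, gave values near the spread between libraries. The gene sox8b lay at 1.42, 2.36, 1.53 and 1.99 CPM in TCDD libraries, against 1.84, 1.28, 1.12 and 1.75 CPM in DMSO libraries. The groups overlapped, and the 4 libraries of a group held only 109 counts of sox8b in TCDD and 83 in DMSO. Its log2 fold change was 0.29 ± 0.26 (interval -0.27 to 0.85, adjusted p = 0.550). The gene sox8a lay at 1.89, 1.87, 1.33 and 1.87 CPM in TCDD libraries, against 2.24, 1.75, 1.61 and 2.23 CPM in DMSO libraries. Its log2 fold change was -0.17 ± 0.22 (interval -0.65 to 0.32, adjusted p = 0.711). Leaving out 1 library gave 0.14 to 0.40 for sox8b, lowest without TCDD 2, and -0.25 to -0.06 for sox8a, nearest to 0 without TCDD 3.

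The neural crest gene sox10 was not called. It lay at 28.3, 30.4, 36.7 and 27.9 CPM in TCDD libraries, against 31.1, 39.4, 35.5 and 42.2 CPM in DMSO libraries. Of the TCDD libraries 3 lay below every DMSO library, while TCDD 3 lay inside the DMSO range. The log2 fold change was -0.27 ± 0.13, with an interval of -0.54 to 0.01 and adjusted p = 0.247 (edgeR).

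The SoxD genes sox5 and sox6, partners of Sox9 in cartilage, were not called either. The gene sox5 lay at 54.6, 51.6, 59.2 and 59.6 CPM in TCDD libraries, against 50.9, 85.5, 62.8 and 68.3 CPM in DMSO libraries. DMSO 1 held the lowest value of the 8 and DMSO 2 the highest, so all TCDD values fell between them. The log2 fold change was -0.25 ± 0.14 (interval -0.56 to 0.06, adjusted p = 0.328), and -0.12 without DMSO 2. The gene sox6 lay at 6.89, 5.82, 7.94 and 6.05 CPM in TCDD libraries, against 9.19, 8.83, 7.83 and 5.80 CPM in DMSO libraries. Its groups overlapped over most of their range. The log2 fold change was -0.24 ± 0.17 (interval -0.62 to 0.13, adjusted p = 0.442).

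Among the 7 genes, 6 had a log2 fold change below 0, as had 49.99% of all genes tested. Of these 6 only sox9b was called. The range of the 7 was -1.29 to 0.29 and the median -0.25, against a median of 0.00 over all genes tested. With library size alone the median of all genes was 0.13. In the authors' TPM the mean in TCDD was lower for sox9a and sox9b, and level with or higher than the DMSO mean for the other 5 genes. The count of 6 was the same in all 22 alternative analyses of the counts, library size alone among them, but not in the TPM. The thresholds of 0.01 and 0.10 among the 22 reuse the main fit, so they could not change this count. The TMM factor of DMSO 1 was 0.825, against 0.972 to 1.09 in the other 7 libraries.

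The order of levels per length differed between the groups mainly in the place of sox9b. In TPM, as computed by the authors, the TCDD libraries averaged 25.1 TPM of sox9a, 12.5 of sox10, 11.4 of sox5, 8.51 of sox9b, 3.83 of sox6, 1.36 of sox8b and 1.19 of sox8a. In DMSO libraries the averages were 27.0 TPM of sox9a, 16.7 of sox9b, 12.4 of sox10, 11.4 of sox5, 3.70 of sox6, 1.07 of sox8a and 0.893 of sox8b. In DMSO the ranges of sox9a, sox9b, sox10 and sox5 overlapped in turn, while that of sox5 lay apart from that of sox6. Within every DMSO library, however, sox9a was the highest of these 4 genes and sox9b the next. Only sox10 and sox5 changed places, in DMSO 2 (16.03 and 17.45 TPM). In TCDD the range of sox9a, 21.6 to 28.2 TPM, lay apart from that of sox10, 11.01 to 14.96 TPM, and the ranges of sox10, sox5 and sox9b overlapped in turn. Within every TCDD library sox9b lay below both sox10 and sox5. The sox8 genes overlapped with each other in both groups and were the lowest of the 7.

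The TPM of sox9b also set its share of the paralog pair. It was 26.2, 22.9, 23.8 and 27.9% of the summed sox9a and sox9b TPM in TCDD libraries 1 to 4, against 44.1, 38.9, 37.4 and 34.6% in DMSO libraries 1 to 4. The mean share was 25.2 ± 2.28% in TCDD and 38.7 ± 3.996% in DMSO (SD, n = 4 each), and the groups did not overlap. The summed TPM of the pair averaged 33.6 ± 4.55 in TCDD and 43.7 ± 9.30 in DMSO, with overlap, since DMSO 1 held only 32.4.

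**Figure D2:**
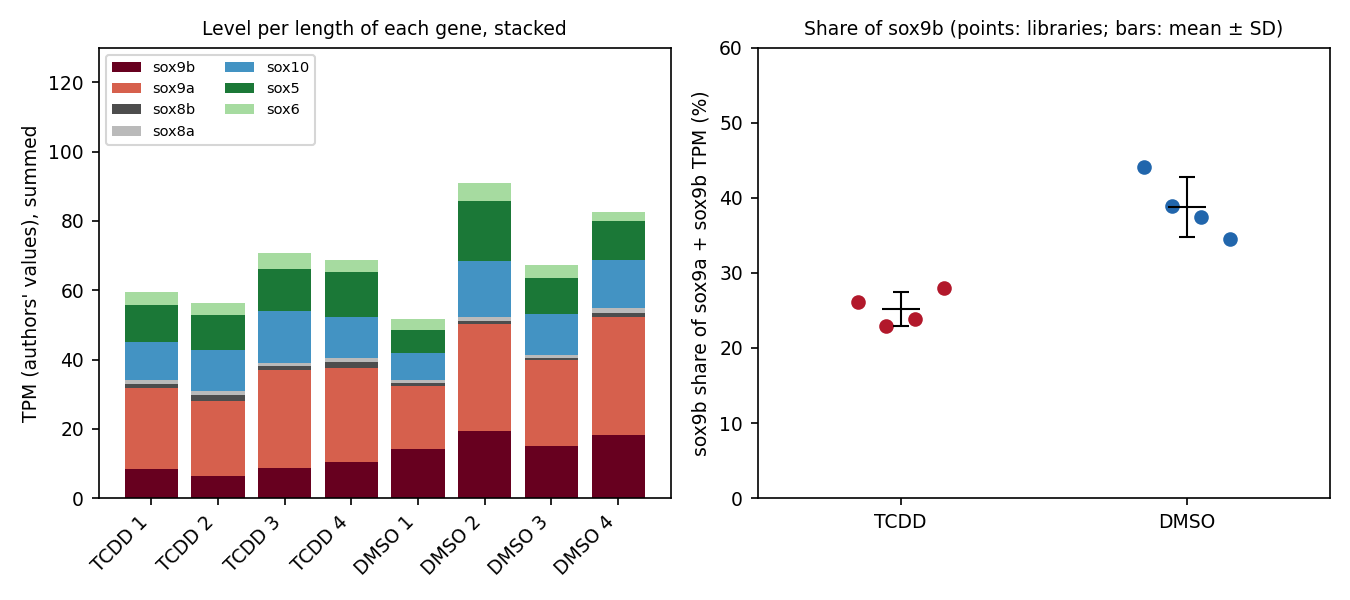
Left, the authors' TPM of the 7 genes stacked for each library (y axis, TPM). Right, the percentage of sox9b in the summed sox9a and sox9b TPM, with points for libraries and bars for the mean ± SD; the TCDD points lie at 22.9 to 27.9% and the DMSO points at 34.6 to 44.1%.

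Whether the genes of a pair moved by different amounts was tested on their log2 ratio within each library, computed from CPM plus 0.5. The test was an exact two-sided permutation test, for which 4 against 4 gives at least p = 0.0286, with adjustment over 5 ratios. The log2 ratio of sox9b to sox9a averaged -1.44 ± 0.17 in TCDD and -0.56 ± 0.24 in DMSO, a difference of -0.88 with no overlap. Its exact p was 0.0286, the smallest possible, and 0.0714 after adjustment, so it did not pass the correction although all 4 TCDD libraries lay below all 4 DMSO libraries. For sox8b over sox8a the difference was 0.35 (0.04 ± 0.25 in TCDD and -0.31 ± 0.07 in DMSO, exact p = 0.0857, adjusted 0.143). Here TCDD 1 fell inside the DMSO range and the other 3 TCDD libraries above it. For sox6 over sox5 the difference was 0.01 (-2.99 ± 0.17 in TCDD and -3.00 ± 0.45 in DMSO, exact p = 0.971), a value far within the spread.

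Related gene copies can share reads, and a quantifier that divides such reads leaves fractions in the estimated counts. In each library 11.4 to 12.0% of all genes had a fraction. The estimated counts of sox9b had one in 6 of 8 libraries, those of sox8b in 6, and those of sox8a and sox6 in 8. Those of sox9a, sox10 and sox5 were whole in all 8 libraries. The source of these fractions was not tested.

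Cartilage matrix genes, the best-known targets of Sox9, fell in the same libraries. Of the 28 cartilage genes tested 19 fell, 0 rose and 9 were not called, against 2.73% of all genes called lower. Their median log2 fold change was -0.67, against 0.00 over all genes. In 19 of the 28 all TCDD libraries lay below all DMSO libraries in TMM-scaled CPM, against 6.34% of all genes. In the authors' TPM the groups overlapped for col2a1a, col2a1b, acana, acanb, col9a1a, col9a2, col9a3, col11a1a, col11a2 and hapln1b. In each of these DMSO 1 was the lowest DMSO library. For the rest of the 19 the groups stayed apart in TPM. Leaving out 1 library at a time gave 14 to 19 falls, with 14 without TCDD 1, TCDD 3, TCDD 4, DMSO 3 or DMSO 4.

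The genes with the smallest p in this list encode small secreted or matrix-binding proteins. The gene ucmab, for a matrix protein of cartilage, averaged 41.0 ± 2.12 CPM in TCDD and 97.2 ± 12.3 CPM in DMSO (-1.24 ± 0.11, adjusted p = 0.00015). The gene hapln1a, whose product links aggrecan to hyaluronan, averaged 55.6 ± 5.88 CPM in TCDD and 115 ± 11.2 CPM in DMSO (-1.05 ± 0.11, adjusted p = 0.00056). The gene otos averaged 79.2 ± 8.54 CPM in TCDD and 170.0 ± 29.3 CPM in DMSO (-1.102 ± 0.14, adjusted p = 0.0012). The gene epyc, for the small proteoglycan epiphycan, averaged 216 ± 21.2 CPM in TCDD and 405 ± 25.0 CPM in DMSO (-0.91 ± 0.12, adjusted p = 0.0016). In each of these 4 genes no TCDD library reached the lowest DMSO library.

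Other genes of the list, named whatever their values, are known targets of Sox9 or cartilage collagens. The aggrecan gene acana lay at 84.9, 82.2, 73.2 and 67.6 CPM in TCDD libraries, against 124, 152, 123 and 122 CPM in DMSO libraries (-0.76 ± 0.12, adjusted p = 0.0038). The groups did not overlap in CPM, and DMSO 2 stood above the other DMSO libraries. The matrilin gene matn1 (894 ± 85.3 CPM in TCDD and 1556 ± 111 CPM in DMSO, -0.80 ± 0.14, adjusted p = 0.0069) and the type IX collagen gene col9a1a (361 ± 48.1 CPM in TCDD and 583 ± 48.7 CPM in DMSO, -0.69 ± 0.13, adjusted p = 0.013) also fell. The type II collagen gene col2a1a, the main cartilage collagen, lay at 2923, 3213, 3143 and 2566 CPM in TCDD libraries, against 4248, 5020, 4445 and 4855 CPM in DMSO libraries. Its groups did not overlap in CPM, with a log2 fold change of -0.65 ± 0.16 and adjusted p = 0.033. That call was lost without any 1 of the TCDD libraries (adjusted p = 0.0697 to 0.0968), without DMSO 3 (0.0915) and without DMSO 4 (0.0804). In the authors' TPM the groups of col2a1a overlapped (597 to 696 TPM in TCDD, 577 to 1103 TPM in DMSO). Those of acana and col9a1a overlapped in TPM too, while those of matn1 did not. Of the 28 genes of the list 23 lay below 0 and 5 above, and members that were not called lay on both sides. Those above 0 include the matrilin gene matn4 (0.22 ± 0.14) and comp (0.12 ± 0.10), which encodes a matrix protein of cartilage and tendon.

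**Figure D3:**
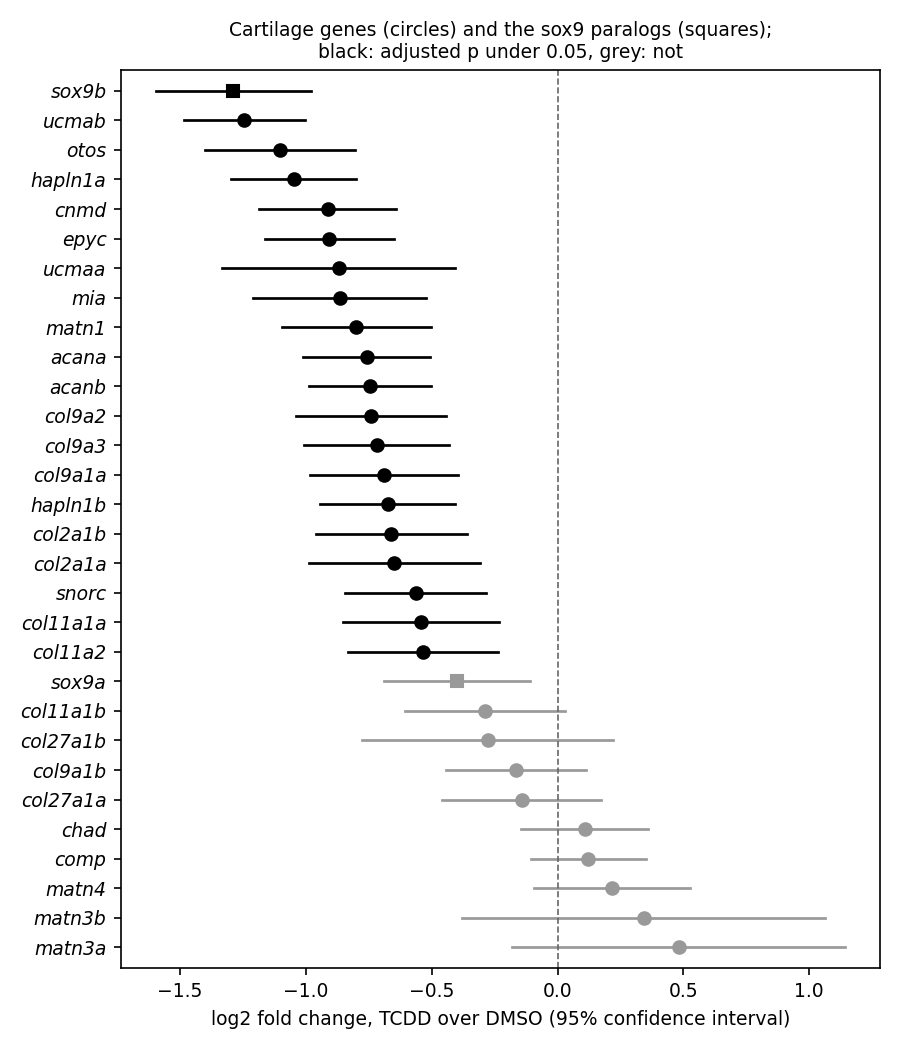
Log2 fold change of TCDD over DMSO (x axis) with 95% confidence interval for the 28 cartilage genes (circles) and the sox9 paralogs (squares), in order of size; black marks an adjusted p under 0.05 and grey the rest. The gene sox9b, at -1.29, has a lower estimate than all 28 cartilage genes. Its interval, -1.60 to -0.98, overlaps those of many of the genes that fell. Among these are ucmab, at -1.24, otos, at -1.10, and hapln1a, at -1.05. The gene sox9a, at -0.40, lies above the 19 that fell.

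The sox9 genes were set against the summed TMM-scaled CPM of these 28 genes in the same library. Abundant genes weigh most in this sum, which averaged 9581 CPM in TCDD and 14853 CPM in DMSO. The gene col2a1a averaged 2961 and 4642 CPM of it, and ucmab only 41.0 and 97.2 CPM. The log2 ratio of sox9b to the cartilage sum averaged -9.63 ± 0.38 in TCDD and -9.01 ± 0.16 in DMSO, a difference of -0.62 with no overlap (exact two-sided permutation p = 0.0286, 0.0714 adjusted over the 5 ratios). As a percentage of the cartilage sum, sox9b was 0.0899 to 0.171% in TCDD libraries and 0.174 to 0.223% in DMSO libraries, so TCDD 4 and DMSO 2 nearly met. The log2 ratio of sox9a to the sum averaged -8.19 ± 0.24 in TCDD and -8.45 ± 0.22 in DMSO, a difference of 0.25 with overlap (exact p = 0.2, adjusted 0.25). Without both DMSO 1 and TCDD 2 the difference for sox9b was -0.40 (exact permutation p = 0.1, the least that 3 against 3 gives).

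**Figure D4:**
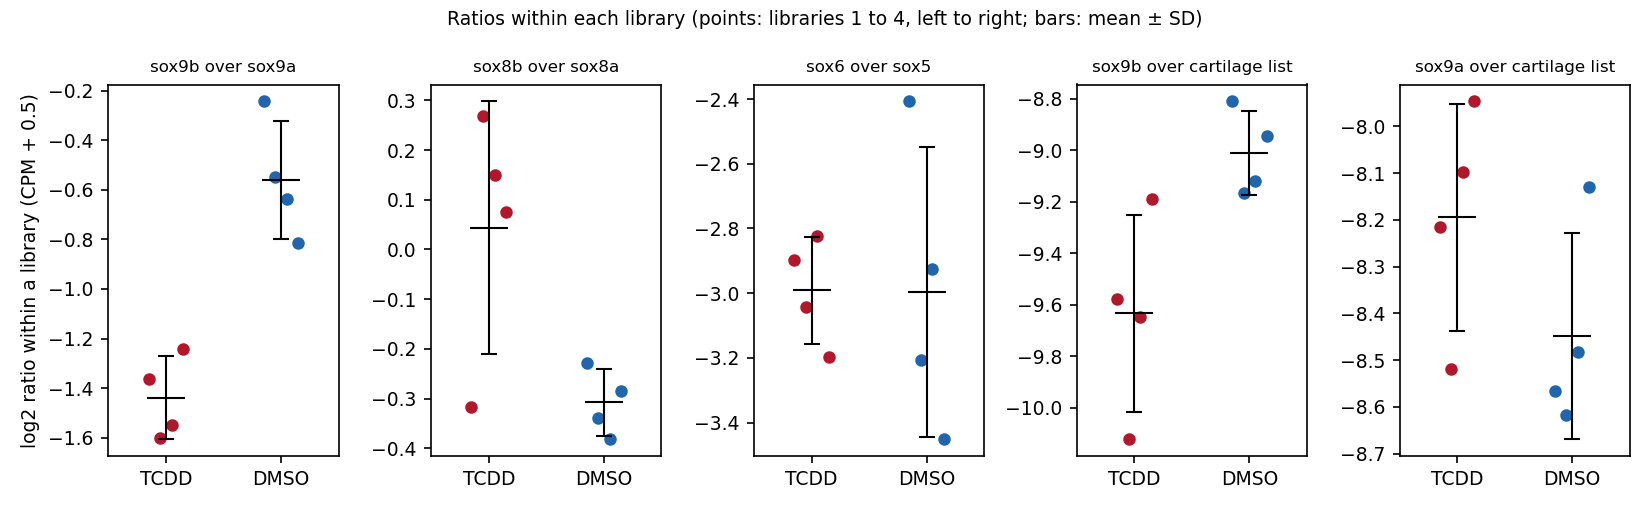
Log2 ratio within each library (y axis, from CPM plus 0.5, a separate scale for each panel) for the gene pairs and for sox9b and sox9a against the summed cartilage genes; points are libraries and bars the mean ± SD. The TCDD and DMSO points are separate for sox9b over sox9a and for sox9b over the cartilage list, and overlap in the other 3 panels.

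Transcription factors and signals of the skeleton were counted next. Of 22 tested genes of this kind 3 rose, against 2.99% of all genes called higher, 0 fell and 19 were not called, and their log2 fold changes had a median of -0.03. In 3 of the 22 all TCDD libraries lay below all DMSO libraries and in 3 above, against 6.34% and 7.61% of all genes. DESeq2 called 6 of the 22, of which 2 were lower, limma-voom 2, and 10 had an unadjusted p under 0.05 in edgeR. Over all genes tested by each rule, in either direction, these shares were 10.2%, 5.15% and 22%, and edgeR called 2.73% lower. Another 4 of the 26 listed were too low to test. The homeobox gene msx2b rose (20.7 ± 3.77 CPM in TCDD and 12.2 ± 1.91 CPM in DMSO, 0.76 ± 0.16, adjusted p = 0.019), as did the limb and jaw mesenchyme genes prrx1b (0.54 ± 0.14, adjusted p = 0.041) and prrx1a (0.46 ± 0.12, adjusted p = 0.047). The call of msx2b was lost without TCDD 1 (0.0514) or TCDD 2 (0.0571), and those of prrx1a and prrx1b without any 1 of TCDD 1, TCDD 2, TCDD 3, DMSO 2, DMSO 3 and DMSO 4 (0.0628 to 0.144). The hypertrophic cartilage and bone collagen gene col10a1a was not called (-0.37 ± 0.15, adjusted p = 0.175).

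In a list of genes taken as upstream of sox9, calls went in both directions. Whether single genes of the list, snai2 among them, act upstream of sox9 in this material was not tested. Of 21 tested 3 rose, 1 fell and 17 were not called, with a median of 0.11. Over all genes tested 2.99% were called higher and 2.73% lower. In 5 of the 21 all TCDD libraries lay above all DMSO libraries, against 7.61% of all genes tested. The dioxin receptor gene ahr2 lay at 207, 230, 242 and 181 CPM in TCDD libraries, against 91.5, 121, 115 and 97.5 CPM in DMSO libraries, with no overlap (1.02 ± 0.13, adjusted p = 0.0016). The neural crest gene snai2, a zinc finger factor, fell to 35.4 ± 1.12 CPM in TCDD, against 52.3 ± 2.98 CPM in DMSO (-0.56 ± 0.09, adjusted p = 0.0050). The growth factor gene fgf10a (0.69 ± 0.14, adjusted p = 0.015) and the paired box gene pax9 (0.76 ± 0.18, adjusted p = 0.028) rose. The call of fgf10a was lost without TCDD 2 (0.0514) or DMSO 3 (0.0593), and that of pax9 without TCDD 1, TCDD 2, TCDD 3, DMSO 3 or DMSO 4 (0.0630 to 0.0859). The long non-coding RNA gene slincR, which lies beside sox9b and is induced through the dioxin receptor in zebrafish, was not analysed here.

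Across the whole sox family sox9b had the lowest log2 fold change. Of 25 sox genes with a row 24 were tested, and 3 were called, sox9b and sox18 lower and sox19b higher. The shares over all genes tested were 2.73% called lower and 2.99% called higher. The gene sox18, a SoxF factor of endothelial cells, lay at 10.9, 10.9, 12.2 and 14.2 CPM in TCDD libraries, against 21.0, 20.8, 20.7 and 23.5 CPM in DMSO libraries. Its groups did not overlap in CPM (-0.83 ± 0.12, adjusted p = 0.0030). In the authors' TPM the groups of sox18 did overlap (5.44 to 7.82 TPM in TCDD, 6.77 to 10.86 TPM in DMSO). The gene sox19b, a SoxB1 factor of early embryos and the nervous system, lay at 30.7, 37.3, 34.8 and 27.7 CPM in TCDD libraries, against 15.2, 17.2, 15.6 and 16.6 CPM in DMSO libraries (1.01 ± 0.12, adjusted p = 0.00087). The neural stem cell gene sox2 was not called (58.8 ± 2.21 CPM in TCDD and 53.1 ± 3.64 CPM in DMSO, 0.15 ± 0.09, adjusted p = 0.382). The median of the 17 other sox genes tested was 0.01. The SoxD gene sox13 was not analysed here.

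**Figure D5:**
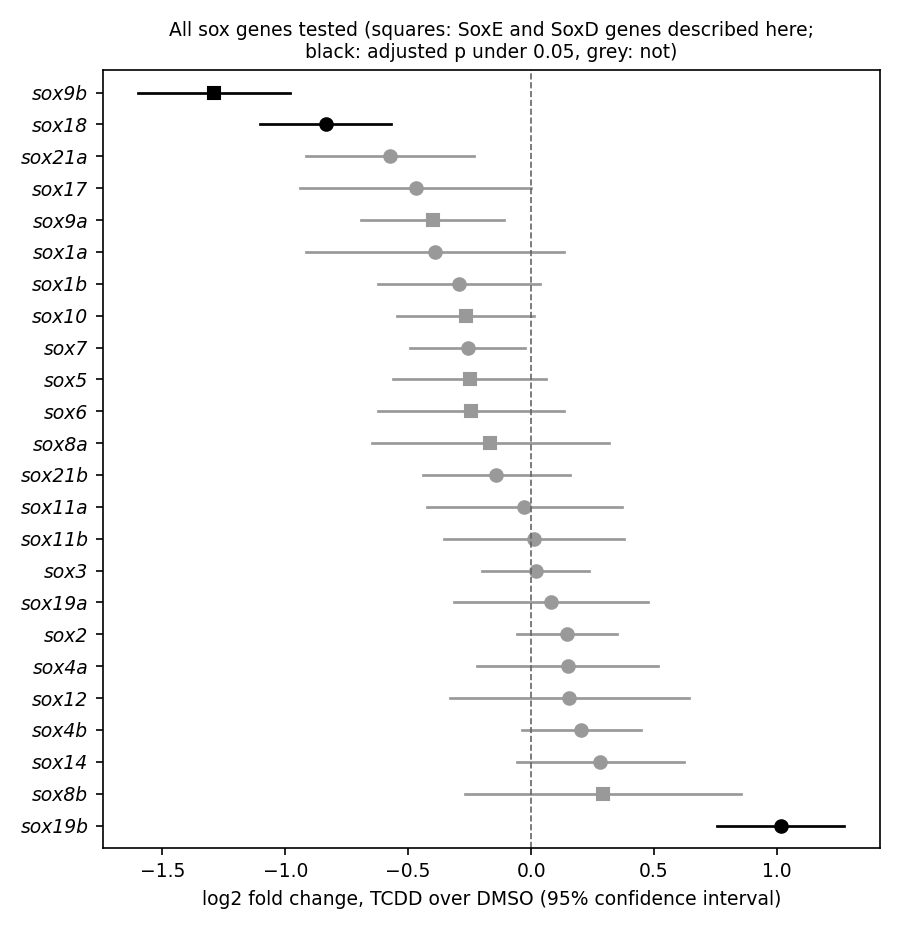
Log2 fold change of TCDD over DMSO (x axis) with 95% confidence interval for the 24 sox genes tested, in order of size; squares are the 7 SoxE and SoxD genes, circles the other 17, black marks an adjusted p under 0.05. The gene sox9b is at one end at -1.29 and sox19b at the other at 1.01.

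Glia and pigment cells depend on sox10. Among all genes tested 2.73% were called lower. Of 15 glial and neural crest genes 1 fell, the myelin gene mbpa (78.2 ± 3.99 CPM in TCDD and 112 ± 7.74 CPM in DMSO, -0.51 ± 0.10, adjusted p = 0.011), and 0 rose, with a median of -0.27. Of the 15 genes 13 lay below 0, against 49.99% of all genes tested, and 2 above. DESeq2 called 3 of the 15, limma-voom 1, and 6 had an unadjusted p under 0.05 in edgeR. Over all genes tested by each rule these shares were 10.2%, 5.15% and 22%. The neuregulin receptor gene erbb3b, the highest of the 15, was not called (0.28 ± 0.11, adjusted p = 0.156). Of 14 pigment cell genes 3 fell and 0 rose, with a median of -0.29, while DESeq2 called 4 and limma-voom 1. The 3 that fell were the melanin synthesis gene tyrp1a (3.67 ± 0.995 CPM in TCDD and 7.11 ± 0.706 CPM in DMSO, -0.95 ± 0.20, adjusted p = 0.018), the pteridine gene gch2 (adjusted p = 0.036) and the purine gene pnp4a (adjusted p = 0.045). The call of tyrp1a was lost without DMSO 3 (0.0679). Those of gch2 and pnp4a were each lost without any 1 of TCDD 1, TCDD 2, TCDD 4, DMSO 1 and DMSO 3 (0.0614 to 0.129), and that of pnp4a also without TCDD 3 or DMSO 4. The melanocyte factor gene mitfa, a direct target of Sox10, lay at 1.21 ± 0.283 CPM in TCDD and 1.096 ± 0.168 CPM in DMSO (0.14 ± 0.26, adjusted p = 0.799, and -0.02 without TCDD 2). Of 7 enteric neuron genes 0 were called with edgeR, with DESeq2, which called 10.2% of the genes it tested, or with limma-voom, which called 5.15%. An unadjusted p under 0.05 in edgeR was found for 1 of the 7 and for 22% of all genes.

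Among 16 valve and epicardial genes 2 fell and 1 rose with edgeR, with a median of -0.40. Of the 16 genes 15 lay below 0, against 49.99% of all genes tested, and only the 1 that rose lay above. DESeq2 called 5 of the 16, limma-voom 2, and 9 had an unadjusted p under 0.05 in edgeR. Over all genes tested by each rule these shares were 10.2%, 5.15% and 22%. Over all genes tested 2.73% were called lower and 2.99% higher, with a median of 0.00. The 3 called were hapln1b, also in the cartilage list (-0.68 ± 0.12, adjusted p = 0.0096), the hyaluronan synthase gene has2 (0.723 ± 0.158 CPM in TCDD and 1.54 ± 0.412 CPM in DMSO, adjusted p = 0.047) and the epicardial gene tbx18, which rose (0.67 ± 0.15, adjusted p = 0.021). The call of has2 was lost without any 1 library other than DMSO 4 (0.0528 to 0.153), and that of tbx18 without TCDD 2 (0.0732) or TCDD 3 (0.0727). The epicardial gene tcf21 was not called (3.09 ± 0.716 CPM in TCDD and 5.43 ± 2.31 CPM in DMSO, -0.81 ± 0.28, adjusted p = 0.122). DMSO 1 held 8.79 CPM of tcf21, above the other DMSO libraries, and the log2 fold change was -0.48 without it.

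Markers of other cell types that use sox9, or that the material holds, were counted in the same way. Over all genes tested 2.73% were called lower and 2.99% higher with edgeR, and 22% had an unadjusted p under 0.05. DESeq2 called 10.2% of the genes it tested and limma-voom 5.15%. In the retinal glia list 2 of 10 fell, vim (-0.61 ± 0.11, adjusted p = 0.0092) and id1 (-1.05 ± 0.16, adjusted p = 0.0039), neither of them limited to that cell type, with a median of -0.46. Of 12 genes of bile and pancreatic ducts 1 fell, cldn15la (-0.55, adjusted p = 0.049), with a median of -0.19. That call was lost without any 1 library other than DMSO 2 (0.0737 to 0.127). Of 8 inner ear genes 0 were called with edgeR or limma-voom, 1 was called with DESeq2 and 2 had an unadjusted p under 0.05. Of 12 skeletal muscle genes 0 were called with any of these 3 tools, and 3 had an unadjusted p under 0.05. Of 11 liver genes 1 rose, the ceruloplasmin gene cp (0.97, adjusted p = 0.020), lost without TCDD 1, TCDD 2, DMSO 3 or DMSO 4 (0.0515 to 0.0829). DESeq2 called 4 of these 11, limma-voom 1, and 6 had an unadjusted p under 0.05. Of 13 heart muscle genes 2 fell, myl7 (-0.99 ± 0.22, adjusted p = 0.023) and myh7 (-0.48 ± 0.12, adjusted p = 0.034), with a median of -0.38. The call of myl7 was lost without TCDD 3, DMSO 1 or DMSO 3 (0.0589 to 0.0687), and that of myh7 without TCDD 1, TCDD 3, TCDD 4 or DMSO 3 (0.0673 to 0.104). The part of these cell types in the fall of sox9b was not tested.

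Some calls in these lists also rested on the method. With library size alone those of has2, myh7, mbpa, pnp4a, gch2 and cldn15la were lost (adjusted p = 0.0639 to 0.103, edgeR). With limma-voom those of has2, prrx1a, pnp4a, gch2 and cldn15la were lost (adjusted p = 0.0511 to 0.0683). Without a filter on low counts the calls of has2, prrx1a and pnp4a were lost, and without robust estimation those of prrx1a and cldn15la (adjusted p = 0.0503 to 0.0565). With offsets for transcript length pnp4a and cldn15la were no longer called (adjusted p = 0.0518 and 0.118). With DMSO 1 and TCDD 2 both left out, has2, pax9, myl7, prrx1a, prrx1b, pnp4a, gch2, tbx18 and cldn15la were no longer called (adjusted p = 0.0520 to 0.194).

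The variation of sox9a and sox9b within the groups was compared over the libraries. Their log2 CPM, as deviations from the group mean, had Pearson r = 0.47 and Spearman rho = 0.52 over the 8 libraries, given as a description. Among 15738 tested genes that averaged 1 CPM or more and have a symbol other than a clone name, those with deviations most like sox9a were lingo4b (r = 0.99), tbc1d5 (0.98), arel1 (0.97), fam193a (0.97) and cul3b (0.96). The largest deviation of sox9a itself was that of DMSO 4. Those most like sox9b were ppp1r8a (0.97), lman2la (0.97), rcvrnb (0.96), ciz1a (0.95) and adck2 (0.95). These are the highest of 15738 correlations over only 8 libraries, and such a selection can give high r by chance alone. Whether these genes vary with sox9a or sox9b in other samples was not tested. Of these 10 genes 0 were called between TCDD and DMSO, against 5.72% of all genes tested.

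In the RefSeq gene order sox9b lies near sox8b, with 3 genes between them. This neighbour had a log2 fold change of 0.29 ± 0.26, while sox9b had -1.29 ± 0.14. The protein-coding genes measured nearest to sox9a were sstr2a (0.40 ± 0.19, adjusted p = 0.246) on one side and an unnamed gene (0.17 ± 0.23, adjusted p = 0.721) on the other.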

How the data were processed

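Per the file headers, the authors deposited, for each library, an estimated count (expected count), a TPM and an FPKM per gene. The submitters' processing notes name Bowtie2 and GRCz11; no source used here names the quantifier or the annotation. Expected counts were rounded, and R 4.3.3 ran edgeR 4.0.16 on them, with filterByExpr, TMM and the robust two-sided quasi-likelihood F-test on treatment; limma 3.58.1 and DESeq2 1.42.0 were alternatives. The SE is the log2 fold change over the square root of F. The FPKM the authors deposited served only to imply transcript length. TPM were used as deposited, for levels between genes.

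Members and lists were chosen with earlier results of these data known. Of 224 list memberships 218 matched by symbol, 2 by synonym (RefSeq genes of GRCz12tu, also used for gene order) and 4 did not match. Named were the members, up to 4 called genes with the smallest p per list, genes named whatever their values (cyp1a, sox2, sox13, sox18, col2a1a, acana, col9a1a, matn1, ahr2, mitfa, erbb3b, tcf21) and the 5 genes most like sox9a and sox9b; col10a1a, matn4, comp, cmlc1, sstr2a and its counterpart were chosen after their values were seen. In simulated counts for this comparison (20522 genes), 92 of 100 genes changed 2-fold and 22 of 100 changed 1.5-fold were recovered, with 13 false calls among 127. The changed genes were drawn from those that averaged 5 CPM or more, and no others were changed. These rates therefore do not cover lower genes such as sox8a, sox8b, has2 and mitfa. Ratios and figures used SciPy 1.17.1, matplotlib 3.10.9, pandas 2.3.3 and numpy 2.4.6 under Python 3.11.15.

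The replicate numbers were not taken to pair the samples. Alternatives were other tests, scalings, filters and thresholds, offsets for length, and libraries left out.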

Additional observations from a re-analysis of the deposited data

Results flagged for a closer look

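In 9 of 104 groups of 4 libraries examined, the highest or lowest library stood apart from the other 3 by more than Dixon's 95% critical value for 4 samples, which chance gives in about 1 of 20 groups. Among the sox genes, sox9a was at 54.1 CPM in DMSO 4 (37.6 to 39.2 CPM in the other DMSO libraries), sox8a at 1.33 CPM in TCDD 3 (1.87 to 1.89 CPM in the other TCDD libraries) and sox18 at 23.5 CPM in DMSO 4 (20.7 to 21.0 CPM in the others). In the list taken as upstream of sox9, TCDD 4 was low for pax9, at 35.5 CPM (58.8 to 61.8 CPM in the other TCDD libraries), and for fgf10a, at 16.7 CPM (21.5 to 22.1 CPM). The gene acana was at 152 CPM in DMSO 2 (122 to 124 CPM in the other DMSO libraries) and mbpa at 123 CPM in DMSO 4 (106 to 109 CPM). DMSO 1 was high for cyp1a, at 164 CPM (101 to 106 CPM in the others), and for the heart muscle gene cmlc1, at 218 CPM (117 to 131 CPM).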

How the results depend on the processing

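The fall of sox9b was called, and the other 6 members were not, in all 22 alternative analyses, and no member's log2 fold change changed sign. The thresholds of 0.01 and 0.10 among the 22 reuse the main fit and could not change a sign. The count of called genes was 2007 with DESeq2 (939 higher, 1068 lower), 937 higher and 372 lower with library size alone, 327 at a threshold of 0.01 (191 and 136), 2070 at 0.10 (995 and 1075) and 616 without both DMSO 1 and TCDD 2 (338 and 278). Leaving out 1 library gave 523 to 1854 calls (294 to 682 higher, 229 to 1172 lower). Cartilage falls were 14 to 19 without 1 library and 11 at a threshold of 0.01. The samples with the same replicate number did not deviate together (correlations -0.27, -0.22, 0.10 and 0.29), and 3 of 8 samples correlated best with their own number in the other group. With that number as a replicate block, 1347 genes were called (657 higher, 690 lower), sox9b again (-1.30, adjusted p = 0.0011), and 16 cartilage genes, while the calls of col2a1a, has2, prrx1a, prrx1b, pnp4a and cldn15la were lost (0.0520 to 0.0697). Same-numbered pairs gave the differences -0.88 for sox9b over sox9a and -0.62 for sox9b over cartilage with p = 0.125, the least 4 pairs allow in an exact sign-flip test. Without both DMSO 1 and TCDD 2 these were -0.72 and -0.40 (exact permutation p = 0.1, the least possible). Without 1 library they were -0.96 to -0.77 and -0.77 to -0.46 (exact p = 0.0571, the least possible). The difference of sox6 over sox5 was -0.013 with TPM, -0.0040 with a pseudocount of 0.1, -0.0067 with none, and -0.14 to 0.20 without 1 library. The log2 fold change of mitfa was -0.023 (without TCDD 2) to 0.243 without 1 library. Counts of the sox8 genes, 16.1 to 34 per library, limit their precision.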
